A study of Mus musculus with 2 samples.

Results

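The 10 genes described here encode subunits, inhibitors and feedback genes of NF-kB. Nfkbia, Nfkbiz, Nfkbie and Nfkbid belong to the IkB (inhibitor of NF-kB) family. Tnfaip3 and Traf1 are signalling regulators, and Nfkb1, Nfkb2, Rel and Relb encode subunits. The genes were taken by symbol from a list of members, and all 10 were found among the 32285 genes of the count tables. Their UMIs (unique molecular identifiers, counts of captured transcripts) were summed per library and cell type, and, within neutrophils, in 4 bins of equal cell number by the share of UMIs from Retnlg, a gene that is abundant in blood neutrophils. Neutrophils were cells in which S100a8 and S100a9 together made up at least 5% of UMIs. The gate and the bins did not use the levels of the 10 genes, but the list of members was chosen with earlier results of these data known.

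The study profiled blood neutrophils of an Alzheimer's disease mouse model by droplet single-cell RNA-seq (10x Genomics, version 3 chemistry), and asked how neutrophils of the model differ from those of normal mice. There were 2 libraries, one labelled WT and one labelled APP/PS1, with no treatment named. Per the study's text the mice were female and 7 months old, the animals without a transgene that were bought were C57BL/6J mice, neutrophils were enriched from blood with a kit, and cells of 3 mice were pooled. APP/PS1 mice carry transgenes that lead to amyloid deposits in the brain. With 1 library per genotype there is no replicate, no test was made, and every interval below is a 95% interval for counting error only.

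NF-kB is a family of dimeric transcription factors held in the cytoplasm by IkB proteins. Signals from Toll-like, interleukin-1 and tumour necrosis factor receptors activate a kinase complex that marks IkB for degradation, and the freed dimers switch on inflammatory genes together with the genes of their own inhibitors. In neutrophils this circuit is known for its part in cytokine production and in cell survival.

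The WT library held 17123 cells and 92458623 UMIs and the APP/PS1 library 17645 cells and 84870864 UMIs, of which 14564 and 15208 cells passed the filters. The gate took 7559 WT cells and 8368 APP/PS1 cells as neutrophils, with a median of 2676 and 2848.5 UMIs per cell. Although neutrophils were enriched, they were 51.9% and 55.0% of the kept cells, and the other cells were grouped by clustering without the 10 genes and named by markers. Across the libraries 83 cell barcodes were shared, 63 of them among kept cells. The gate and the clusters did not coincide: 677 WT and 1627 APP/PS1 cells lay in neutrophil clusters but below the gate, and 642 and 393 cells passed the gate but lay in clusters of other cell types. Of the neutrophils passing the gate, 7.41% in WT and 5.87% in APP/PS1 were called doublets and were kept. CPM here is a gene's UMIs divided by all UMIs of the summed cells, times 1000000, and is not scaled by transcript length, so levels are compared between cells and not between genes. Just outside the gate (4 to 5% of UMIs, 313 and 486 cells) Nfkbia was at 610.3 CPM (WT) and 657 CPM (APP/PS1), and just inside it (5 to 6%, 352 and 511 cells) at 659 and 743 CPM. Both bands took kept cells of any cluster, so they may mix neutrophils with other cell types. All 9 neutrophil markers were detected in the gated neutrophils, summing to 160338 CPM (WT) and 151517 CPM (APP/PS1). S100a8 and S100a9, which define the gate, made up 152257 and 143869 CPM of this, so the sum mostly follows from the gate.

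NF-kB binding sequences are shown first, because several of these genes are known to be switched on by NF-kB itself. RefSeq promoter sequences (GRCm38.p6, 250 bases before to 50 after a start) were found for 7 of the 10 genes, with 12 starts in all; Nfkbiz, Nfkb1 and Relb had no entry. The kB consensus, a motif of 10 bases, was searched on both strands. It was found at 8 of the 12 starts and in 6 of the 7 genes, against 4.51% of all 32851 promoters and 5.14% of 27025 genes. The Traf1 window held no match. The 30 bases around the matches below are on the gene's strand, and capitals mark the match, merged where matches on both strands overlap. The position after each name is that of the first capital base, counted from 0 at the start of transcription the table lists.
Nfkbia, at -29, chr12:55492657-55492686, minus strand: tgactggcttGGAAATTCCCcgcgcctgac
Nfkbie, at -106, chr17:45555584-45555613, plus strand: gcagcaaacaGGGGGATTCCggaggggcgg
Nfkbid, at -181, chr7:30422215-30422244, plus strand: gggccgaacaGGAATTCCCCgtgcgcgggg
Tnfaip3, at -12, chr10:19015403-19015432, minus strand: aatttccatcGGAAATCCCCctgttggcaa
Nfkb2, at -39, chr19:46304689-46304718, plus strand: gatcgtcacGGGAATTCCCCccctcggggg
Rel, at -92, chr11:23771041-23771070, minus strand: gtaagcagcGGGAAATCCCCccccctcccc
A match is a description of these letters and does not show that NF-kB bound there. In Nfkb2 and Rel the capitals cover 3 overlapping matches each. Nfkbid, Tnfaip3 and Nfkb2 had further matches, and 2 of the 3 Nfkbid starts and 1 of the 2 Tnfaip3 starts had none.

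Nfkbia, the inhibitor IkB-alpha that is resynthesised after NF-kB activation (chr12:55489410-55492647 of mm10 in GENCODE M21), was present in every cell type. In neutrophils it was at 561 CPM (WT) and 563 CPM (APP/PS1). Basophil-like cells held more, with 1137 CPM (WT) and 1814 CPM (APP/PS1), but they were only 66 and 40 cells. On either side of the neutrophils were 2 monocyte-like clusters: monocytes A, led by Ace, Treml4 and Ear2, held 661 and 623 CPM, and monocytes C, led by Ccr2, Fn1 and F13a1, held 466 and 402 CPM. T-like (235 and 263 CPM), B-like (217 and 160 CPM) and NK-like cells (178 and 199 CPM) were lower, and erythroid-like cells ranged from 143 to 306 CPM. Among these 4 types, the values of erythroid-like cells overlapped those of each of the others. The cells of neutrophil clusters below the gate had 858 and 920 CPM of Nfkbia, above the gated neutrophils in both libraries.

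Nfkbiz, which encodes the nuclear IkB-zeta that helps NF-kB activate secondary response genes (chr16:55811375-55838899), was at 447 CPM (WT) and 480 CPM (APP/PS1) in neutrophils. Again the basophil-like cells were highest, at 888 and 1322 CPM. Monocytes A spanned 302 CPM in WT to 501 CPM in APP/PS1, a range that included both neutrophil values. Monocytes C had 127 and 157 CPM. NK-like, T-like and B-like cells had between 58.3 and 106 CPM, and erythroid-like cells between 84.8 and 179.5 CPM.

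Nfkbid, a further nuclear IkB protein (IkB-NS, chr7:30421732-30428746), was the only one of the 10 that was higher in neutrophils than in monocytes past a log2 ratio of 1 in both libraries. Neutrophils held 158 and 191 CPM, monocytes A 65.1 and 77.1 CPM and monocytes C 43.6 and 49.6 CPM. Against both monocyte-like clusters summed, the log2 ratio was 1.60 (1.52 to 1.69) in WT and 1.68 (1.59 to 1.77) in APP/PS1. T-like and NK-like cells held between 28.9 and 33.2 CPM. Basophil-like cells held 112 and 157 CPM, with counting intervals of 78.6 to 155 CPM and 106 to 224 CPM, and the interval included the neutrophil level in APP/PS1 but ended just below it in WT. The cells below the gate had the highest levels, 284 and 314 CPM.

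Nfkbie, which encodes IkB-epsilon (chr17:45555703-45563169), was low in neutrophils at 19.6 CPM (WT) and 16.9 CPM (APP/PS1). Monocytes A (50.9 and 45.7 CPM) and monocytes C (48.9 and 36.6 CPM) held more, and overlapped each other. NK-like cells (20.5 and 17.6 CPM) and T-like cells (17.3 and 23.1 CPM) overlapped the neutrophils. The neutrophil value came from 496 and 482 UMIs.

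Tnfaip3 encodes the ubiquitin-editing enzyme that shuts off signalling upstream of the kinase complex (chr10:19000910-19015657). Its level in neutrophils was 82.9 CPM (WT) and 79.1 CPM (APP/PS1), below both monocyte-like clusters (92.3 to 125 CPM). NK-like cells held 626 and 428 CPM and T-like cells 529.8 and 441 CPM, with overlapping ranges, and basophil-like cells held 928 and 852 CPM. These 3 types stood above all the others in both libraries. B-like cells held 49.8 and 40.8 CPM.

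Traf1, an adaptor of tumour necrosis factor receptor signalling (chr2:34941750-34961772), separated the monocyte-like clusters. Monocytes A held 195 CPM (WT) and 204 CPM (APP/PS1), and monocytes C 43.2 and 40.0 CPM, a log2 ratio of 2.17 (2.06 to 2.29) and 2.35 (2.20 to 2.49). This was the largest ratio between these clusters among the 10 genes in both libraries. Neutrophils held 34.8 and 24.9 CPM. T-like and NK-like cells lay between, from 61.5 to 93.4 CPM.

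Nfkb1 and Nfkb2 encode the precursor subunits of the canonical and the alternative pathway (chr3:135584655-135691547 and chr19:46304320-46312385). Nfkb1 was at 79.3 CPM (WT) and 72.7 CPM (APP/PS1) in neutrophils, against 318 and 308 CPM in monocytes A and 197 and 189.5 CPM in monocytes C. B-like and T-like cells held between 155 and 169 CPM. Nfkb2 was at 41.0 and 36.5 CPM in neutrophils, 82.2 and 103 CPM in monocytes A and 65.9 and 66.8 CPM in monocytes C. Its values in NK-like and T-like cells, 35.2 to 38.3 CPM, overlapped or lay just under those of neutrophils.

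Rel, the subunit c-Rel (chr11:23736847-23770970), was at 142 CPM (WT) and 120.3 CPM (APP/PS1) in neutrophils. Monocytes A held 554 and 406 CPM, monocytes C 279 and 223 CPM and B-like cells 244 and 221 CPM, with the last 2 overlapping. NK-like cells were lowest at 54.0 and 53.2 CPM. Relb (chr7:19606217-19629438), a subunit of the alternative pathway, was at 17.8 and 21.8 CPM in neutrophils and between 31.3 and 48.2 CPM in both monocyte-like clusters and in B-like cells.

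**Figure D1:**
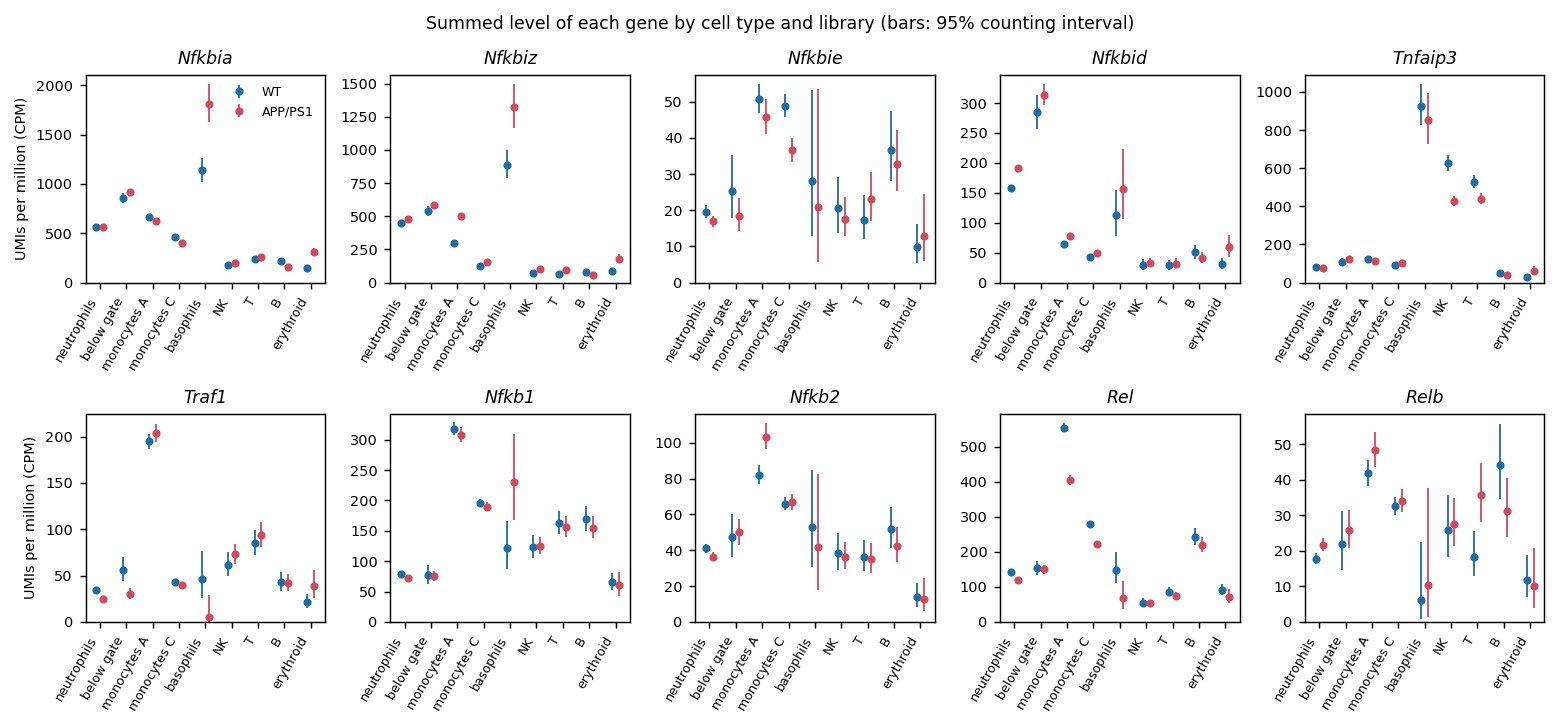
Level of each gene (vertical axis, CPM from 0) in each cell type (horizontal axis), WT in blue and APP/PS1 in red, with 95% counting intervals; "below gate" are cells of neutrophil clusters under the gate. Nfkbia, Nfkbiz and Tnfaip3 are highest in the 66 and 40 basophil-like cells, Nfkbid is highest in neutrophils and the cells below the gate, and Traf1, Nfkb1, Nfkb2 and Rel are highest in monocytes A.

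With these clusters summed, 1 of the 10 genes was higher in neutrophils past a log2 ratio of 1 in both libraries (Nfkbid) and 4 were lower (Nfkbie, Traf1, Nfkb1 and Rel). Of all 7754 genes with at least 200 UMIs, 9.97% were higher and 41% lower by the same rule, so the share of lower members was near that of all genes. The median log2 ratio of the members was -0.92 in WT and -0.997 in APP/PS1, against -0.77 and -0.76 for all genes. With TMM library sizes, which centre most genes on no change, every ratio moved up (0.64 for WT, 0.68 for APP/PS1), and the counts became 2 higher (Nfkbiz and Nfkbid) and 0 lower, against 19% and 25% of all genes. Under that scaling Tnfaip3 changed direction, from -0.34 to 0.30 in WT and from -0.42 to 0.26 in APP/PS1, while the other 9 kept the sign of their ratio in both libraries. Nfkbid was called under both scalings, at 2.25 and 2.36 with TMM.

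Free RNA can add neutrophil transcripts to other cells, but it was not measured directly here. S100a8 and S100a9 together were at 152257 CPM (WT) and 143869 CPM (APP/PS1) in neutrophils. In monocytes A they were at 3.31% and 4.09% of that level, which would carry 18.5 of the 661 CPM of Nfkbia and 5.22 of the 65.1 CPM of Nfkbid in WT. In erythroid-like cells they were at 6.14% and 10.98%, and the Nfkbia carried would be 34.5 of 143 CPM and 61.8 of 306 CPM. The gate limits these levels, because cells at or above 5% were counted as neutrophils. This took 28.5% of the erythroid cluster, 8.53% of monocytes A and 7.28% of monocytes C. Any S100a8 and S100a9 made by the cells themselves was not told apart. The carried values therefore do not estimate free RNA.

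The share of cells with a Nfkbid UMI is given beside that of erythroid-like cells. After thinning each cell to 1000 UMIs, 15.8% of WT and 17.2% of APP/PS1 neutrophils had a Nfkbid UMI, against 1.58% and 5.21% of erythroid-like cells. In the latter the 7 erythroid markers took up 665092 CPM (WT) and 599500 CPM (APP/PS1), so fewer UMIs are left for other genes and the shares are not matched for these. Without thinning the shares were 35.7% and 41.0% against 17.4% and 28.1% at a median of 7476 and 7639.5 UMIs in the erythroid-like cells. At least 1 of the 10 genes had a UMI in 91.6% and 92.9% of neutrophils, or 68.7% and 68.8% after thinning.

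Within neutrophils most of the 10 genes were higher where Retnlg was low. The bins held 1889 to 1890 WT cells and 2092 APP/PS1 cells each, and the median Retnlg share rose from 0.260% to 2.53% of UMIs in WT and from 0.233% to 2.34% in APP/PS1. Nfkbia fell at every step. In WT it was at 693, 630.5, 523 and 397 CPM from the lowest to the highest bin, and in APP/PS1 at 685, 609, 562 and 413 CPM. The lowest bin exceeded the highest by a log2 ratio of 0.80 (0.73 to 0.88) in WT and 0.73 (0.66 to 0.80) in APP/PS1.

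Tnfaip3 was at 99.6, 94.4, 83.5 and 53.7 CPM in the WT bins and at 97.4, 86.3, 81.1 and 54.4 CPM in APP/PS1. The step was mostly between the third and the highest bin, and the log2 ratio of the lowest to the highest was 0.89 (0.70 to 1.09) and 0.84 (0.66 to 1.02). Traf1 fell from 48.1 to 18.6 CPM in WT, a log2 ratio of 1.37 (1.06 to 1.70), and from 31.3 to 17.6 CPM in APP/PS1, 0.83 (0.51 to 1.15). In the highest bin the log2 ratio of APP/PS1 to WT was -0.07 (-0.44 to 0.30) for Traf1 and 0.02 (-0.19 to 0.23) for Tnfaip3, both intervals including 0.

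Nfkb2 was at 50.3 CPM in the lowest and 29.96 CPM in the highest bin of WT and at 42.6 and 28.3 CPM in APP/PS1, with log2 ratios of 0.75 and 0.59. Rel was at 171 and 103 CPM in WT and at 141 and 99.8 CPM in APP/PS1, with ratios of 0.73 and 0.50. Its APP/PS1 ratio was 0.502, just over the limit of 0.5, and the interval of 0.36 to 0.64 reached below it. Nfkbie, Nfkb1 and Relb passed 0.5 in WT only, at 1.16, 0.79 and 0.64 against 0.46, 0.33 and 0.36 in APP/PS1, and this difference between the libraries was not tested.

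Nfkbid passed 0.5 in APP/PS1 only, with 222, 205, 193 and 149 CPM over the bins and a log2 ratio of 0.58 (0.46 to 0.69), against 175, 166, 153 and 138 CPM and 0.35 (0.22 to 0.48) in WT. Nfkbiz did not follow the others. It was at 422, 472, 457 and 433 CPM in WT, a log2 ratio of -0.04 (-0.11 to 0.04), and at 495, 493, 505 and 430.2 CPM in APP/PS1, 0.20 (0.13 to 0.27).

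**Figure D2:**
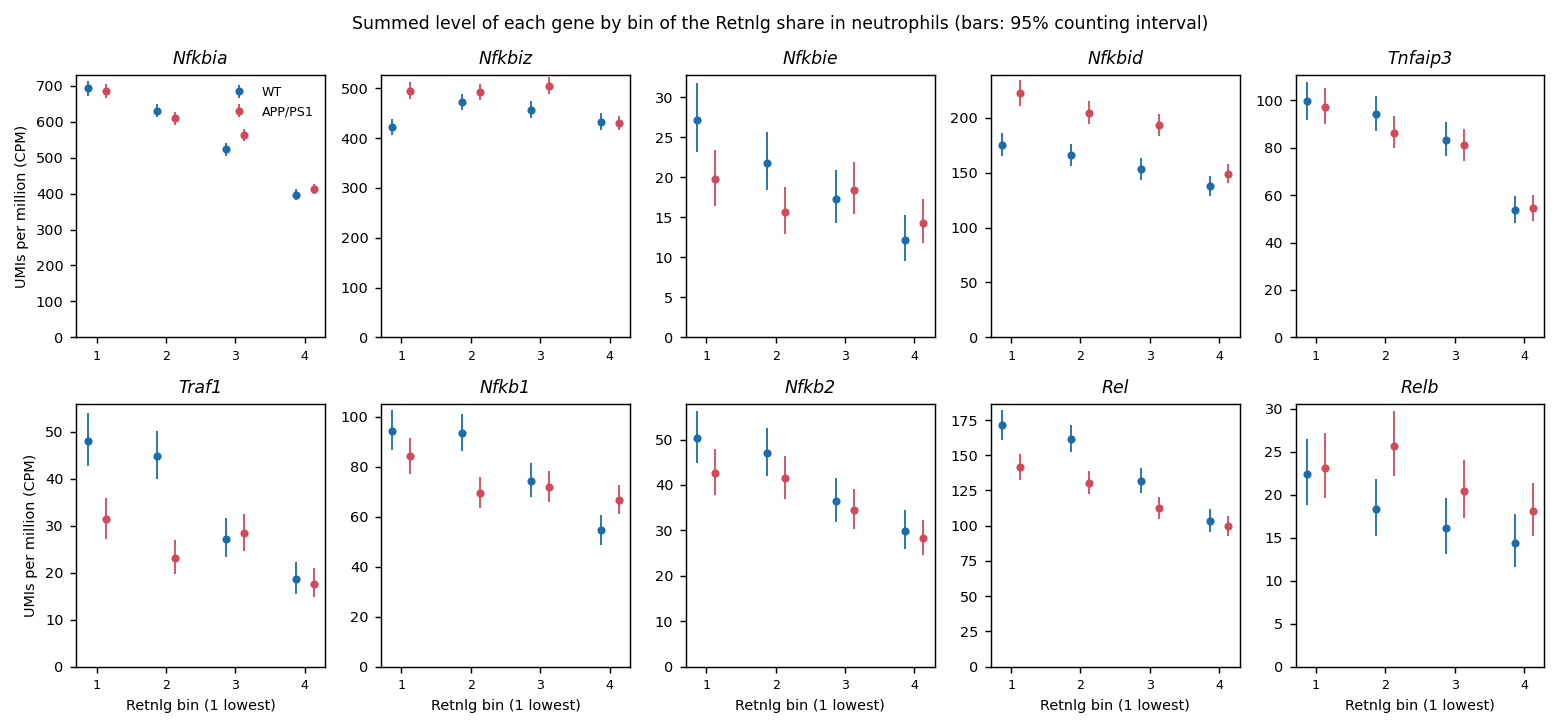
Level of each gene (vertical axis, CPM from 0) by bin of the Retnlg share of UMIs in neutrophils (horizontal axis, 1 lowest), WT in blue and APP/PS1 in red, with 95% counting intervals. Nfkbia falls in each step from 693 to 397 CPM in WT and from 685 to 413 CPM in APP/PS1, whereas Nfkbiz stays between 422 and 505 CPM.

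In all, 5 of the 10 genes (Nfkbia, Tnfaip3, Traf1, Nfkb2 and Rel) were higher in the lowest bin by a log2 ratio over 0.5 in both libraries and 0 were lower. Of all 6372 genes with at least 200 UMIs in the neutrophils of a library, 21.2% were higher and 1.66% were lower. The median log2 ratio of the members was 0.77 in WT and 0.54 in APP/PS1, against 0.31 and 0.28 for all genes, and 9 of the 10 lay above the all-gene median in each library, with Nfkbiz below it in both. S100a8 and S100a9 rose with Retnlg, from 11.2% to 20.2% of UMIs in WT and from 11.1% to 19.0% in APP/PS1, and take up part of the total that every gene is divided by. With TMM library sizes the ratios moved by -0.41 in WT and -0.37 in APP/PS1, 0 of the 10 passed 0.5 in both libraries in either direction, and 7.66% of all genes were higher and 7.82% lower. The 5 named genes kept a ratio above 0 in both libraries under TMM, the lowest being 0.13 for Rel in APP/PS1, but Nfkbid in WT and Nfkb1, Relb and Nfkbiz in APP/PS1 changed sign.

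**Figure D3:**
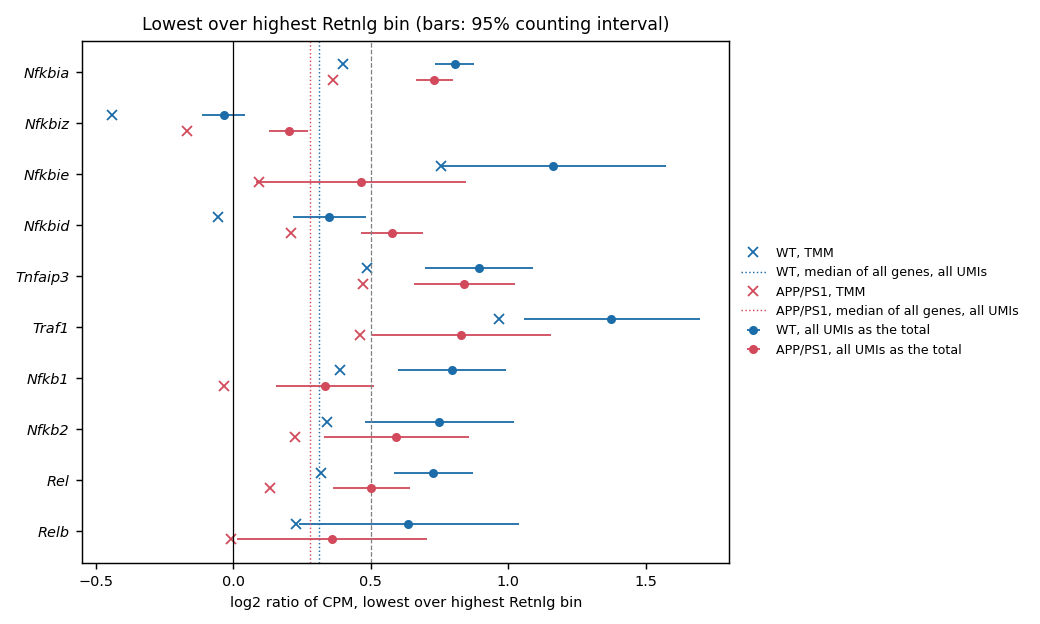
Log2 ratio of the lowest to the highest Retnlg bin (horizontal axis) for each gene, WT in blue and APP/PS1 in red, with circles and 95% counting intervals for all UMIs as the total, crosses for TMM library sizes, dotted lines for the all-gene medians of 0.31 and 0.28 and a dashed line at 0.5. With all UMIs Nfkbia, Tnfaip3, Traf1, Nfkb2 and Rel lie past 0.5 in both libraries, and with TMM none of the 10 genes does so in both.

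Markers of other cells moved with the bins. The 11 monocyte markers summed to 1616 CPM in the lowest and 665 CPM in the highest bin of WT and to 933 and 668 CPM in APP/PS1, and the 7 erythroid markers to 19720 and 4992 CPM and to 8137 and 2151 CPM. The 6 NK markers summed to 176 and 83.3 CPM in WT and to 354 and 82.5 CPM in APP/PS1. Every one of these monocyte, erythroid and NK markers had UMIs in each of those bins. Cells in neutrophil clusters led by genes of other cell types were 14.4% of the lowest and 2.17% of the highest bin in WT, and 8.32% and 2.10% in APP/PS1. Here and below, these clusters do not include the one led by platelet genes. Called doublets were 11.9% and 2.33% in WT and 7.50% and 2.58% in APP/PS1. The 10 immediate early genes, which handling of cells can induce, summed to 16856 and 14035 CPM in WT and to 22869 and 17868 CPM in APP/PS1. The 5 heat shock genes summed to 640.4 and 422 CPM and to 626 and 479.7 CPM. The part of these lists in the gradient was not tested.

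Without the clusters led by genes of other cell types, an alternative added after the data were seen, 5 of the 10 genes again passed 0.5 in both libraries, with Nfkbid in place of Rel, against 9.22% of all 5779 genes higher. Nfkbia was then at 772 and 399.7 CPM in the lowest and highest bin of WT, a log2 ratio of 0.95 (0.87 to 1.03), and at 693 and 408 CPM in APP/PS1, 0.76 (0.69 to 0.83). The ratio of Nfkbid rose to 0.63 (0.49 to 0.77) in WT and 0.71 (0.60 to 0.83) in APP/PS1, and that of Tnfaip3 was 0.88 and 0.80. The ratios of the subunits became smaller: Rel went to 0.35 and 0.42, and Nfkb1 to 0.35 and 0.14.

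Clustering of the neutrophils without the 10 genes gave 5 clusters with no leading genes of other leukocytes. Cluster 0 (4759 cells) was led by Stfa1 and Retnlg, cluster 1 (3828 cells) by Csf1, Clec4n, Ccl3 and Egr1, cluster 2 (3576 cells) by the platelet genes Itga2b, Clec1b and Ppbp, cluster 3 (2313 cells) by the interferon-induced genes Ifit3, Ifit1 and Rsad2, and cluster 6 (314 cells) by the granule genes Camp, Ngp and Ltf. The clustering left out only the 10 genes. Ccl3, Ccrl2 and Gadd45b, among the 10 leading genes of cluster 1, are in the list of NF-kB target genes used below. Levels of the 10 genes in cluster 1 may thus not be independent of how it was made. Counting intervals of cluster 1 and the interferon cluster overlapped for some genes, such as Nfkbie and Relb. Among these 5 clusters, Nfkbia, Nfkbid, Tnfaip3, Nfkbie, Traf1, Nfkb2, Rel and Relb were highest in cluster 1 in both libraries. Nfkbia was at 745 CPM (WT) and 789 CPM (APP/PS1) there, at 609 and 679.9 CPM in the interferon cluster, at 515 and 510.0 CPM in the platelet cluster and at 482 and 451 CPM in cluster 0. Nfkbid followed the same order in both libraries, with 219 and 270.0 CPM in cluster 1 and 153 and 156 CPM in cluster 0. Tnfaip3 was at 92.1 and 108 CPM in cluster 1 and at 60.7 and 55.4 CPM in cluster 0. Nfkbiz differed less, with 519.9 and 561 CPM in cluster 1, 529 and 564 CPM in the interferon cluster and 425 and 459.7 CPM in cluster 0.

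The granule cluster stood apart. Nfkbia was at 121 CPM (WT) and 117 CPM (APP/PS1), Nfkbiz at 220.3 and 154 CPM, Nfkbid at 70.1 and 56.4 CPM, Tnfaip3 at 19.6 and 17.5 CPM and Rel at 54.7 and 62.0 CPM. Each of these values lay below those of the other 4 clusters in both libraries. Nfkb1 did not share this, at 58.9 and 91.4 CPM from 42 and 115 UMIs, within or above the 56.2 to 71.9 CPM of the other 4 clusters. The cells of the granule cluster had a median of 6166 UMIs, against 2444.5 to 2839 in the other 4, and the granule cluster held 123 WT and 191 APP/PS1 cells. As CPM is a share of UMIs, lower values here do not show fewer UMIs per cell, which were not compared.

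**Figure D4:**
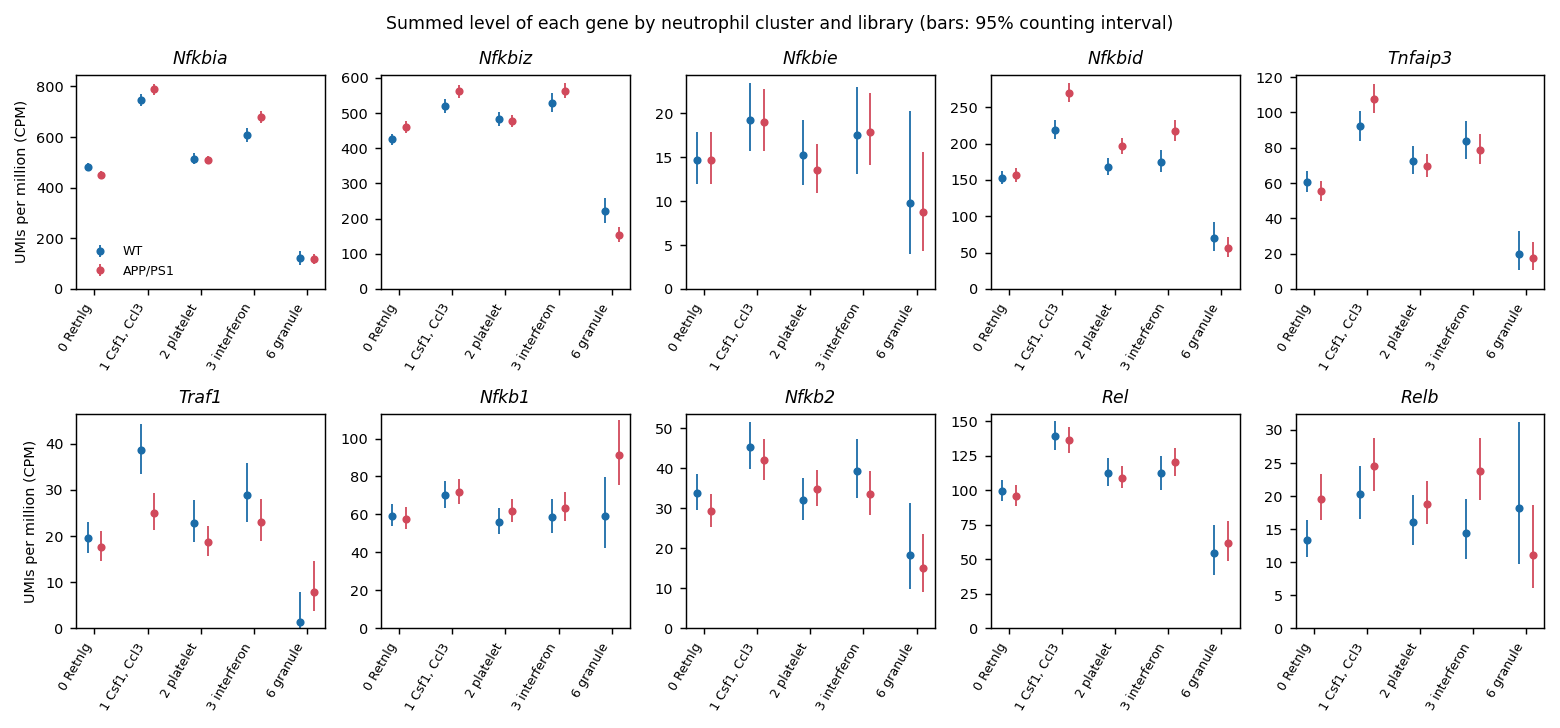
Level of each gene (vertical axis, CPM from 0) in the 5 neutrophil clusters with no leading genes of other leukocytes (horizontal axis), WT in blue and APP/PS1 in red, with 95% counting intervals. Nfkbia is highest in cluster 1 at 745 and 789 CPM and lowest in the granule cluster at 121 and 117 CPM.

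The remaining 5 neutrophil clusters were led by genes of monocytes, NK cells, red cells or B cells, held 27 to 408 cells and had medians of 6072 to 7419 UMIs. In cluster 4, led by Pou2f2, Ace and Adgre4, Rel was at 387 CPM (WT) and 311 CPM (APP/PS1), Nfkb1 at 189.9 and 182 CPM and Traf1 at 116 and 130.2 CPM. All lay between the levels of neutrophil cluster 1 and of monocytes A. In the NK-led cluster Tnfaip3 was at 407 and 271 CPM.

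Between the libraries, none of the 10 genes passed a log2 ratio of 0.5 from WT to APP/PS1 in neutrophils. Of all 6372 genes 8.9% did, so for 10 genes this count is near the background. The median log2 ratio of the 10 genes was -0.10, against -0.02 for all genes. The counting intervals of 3 genes lay above 0 and those of 5 below, and these intervals do not include differences between mice or libraries. Nfkbia was at 561 CPM (WT) and 563 CPM (APP/PS1), a log2 ratio of 0.00 (-0.03 to 0.04), from 14181 and 16009 UMIs.

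Nfkbid was higher in APP/PS1, 191 against 158 CPM, with a log2 ratio of 0.27 (0.22 to 0.33). Its ratio ran from 0.12 (-0.01 to 0.25) in the highest bin to 0.34 (0.23 to 0.46) in the lowest. Over the clusters it ran from 0.03 (-0.10 to 0.15) in cluster 0 to 0.32 (0.16 to 0.47) in cluster 3, but in the granule cluster it was -0.31 (-0.86 to 0.24), from 70.1 CPM (WT) and 56.4 CPM (APP/PS1). Relb was at 21.8 against 17.8 CPM, 0.29 (0.12 to 0.47), and Nfkbiz at 480 against 447 CPM, 0.10 (0.07 to 0.14). For neutrophils as a whole, the ratios of these 3 genes stayed above 0 under all alternatives run. In the granule cluster Nfkbiz was lower in APP/PS1, at -0.52 (-0.83 to -0.20). Relb was at -0.71 (-1.91 to 0.49) there, from 13 UMIs (WT) and 14 UMIs (APP/PS1). The Nfkbiz ratio was -0.01 (-0.08 to 0.07) in the highest bin and -0.02 (-0.10 to 0.06) in cluster 2. Elsewhere among the bins and clusters compared, the ratios of Nfkbiz and Relb were above 0.

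Traf1 was lower in APP/PS1, 24.9 against 34.8 CPM, with a log2 ratio of -0.48 (-0.63 to -0.34). Most of the gap lay in the 2 lowest bins, where it was 31.3 against 48.1 CPM and 23.1 against 44.9 CPM, while the highest bin had 17.6 and 18.6 CPM. Rel was at 120.3 against 142 CPM, -0.24 (-0.31 to -0.17), Nfkb1 at 72.7 against 79.3 CPM, -0.13 (-0.22 to -0.04), and Nfkb2 at 36.5 against 41.0 CPM, -0.17 (-0.29 to -0.04). For Nfkbie the ratio was -0.21 (-0.40 to -0.03). In the highest bin Nfkb1 went the other way, at 66.7 against 54.5 CPM and 0.29 (0.09 to 0.50).

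Markers of other cells moved with these differences. Those of monocytes summed to 1108 CPM (WT) and 760.1 CPM (APP/PS1) in neutrophils, with none of the 11 at 0, those of erythroid cells to 12004 and 6034 CPM, with none of the 7 at 0, and those of dendritic cells to 106 and 54.2 CPM, with 1 of the 6 at 0. B cell markers were at 130.1 and 105 CPM, T cell markers at 19.6 and 19.1 CPM, NK cell markers at 136 and 187 CPM, plasma cell markers at 56.8 and 86.6 CPM and basophil markers at 7.16 and 9.42 CPM. Without the clusters led by genes of other cell types, 6882 WT and 7908 APP/PS1 cells remained. These still included the platelet-led cluster 2, with 1516 WT and 2060 APP/PS1 cells. The log2 ratio of Rel then became -0.01 (-0.09 to 0.07), that of Nfkb1 0.09 (-0.02 to 0.19), that of Nfkb2 -0.11 (-0.26 to 0.03) and that of Nfkbie -0.05 (-0.27 to 0.16), so none of these 4 intervals lay apart from 0. Traf1 was still lower, at 20.2 against 25.9 CPM and -0.36 (-0.54 to -0.19), and Nfkbid still higher, at 201 against 174 CPM and 0.21 (0.14 to 0.27). Relb was at 20.9 against 16.1 CPM, 0.38 (0.18 to 0.58).

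Other lists also differed between the neutrophils of the libraries. The immediate early genes summed to 15896 CPM (WT) and 21242 CPM (APP/PS1), the 6 interferon-induced genes to 1004 and 1419 CPM and the 6 platelet genes to 718 and 907 CPM. Heat shock genes were at 543 and 551 CPM. Specific granule genes were at 3027 and 3774 CPM. Their part in the differences of the 10 genes was not tested.

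In monocytes A, 1 of the 10 genes passed 0.5, against 2.62% of 5922 genes. This was Nfkbiz, at 302 CPM (WT) and 501 CPM (APP/PS1), with a log2 ratio of 0.73 (0.66 to 0.79). In monocytes C it was at 127 and 157 CPM, a ratio of 0.31 (0.22 to 0.39), and none of the 10 passed 0.5 there, against 3.06% of 7061 genes. Rel went the other way, at 554 and 406 CPM in monocytes A, -0.45 (-0.51 to -0.39), and at 279 and 223 CPM in monocytes C, -0.32 (-0.39 to -0.26).

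Few members reached 200 UMIs in lymphoid cells. In NK-like cells 4 did, of which Nfkbiz was higher (73.2 and 106 CPM, log2 ratio 0.54) and Tnfaip3 lower (626 and 428 CPM, -0.55) in APP/PS1, against 2.13% of 1925 genes past 0.5. In T-like cells 3 members were compared and none passed, against 5.46% of 1520 genes, with Tnfaip3 at 529.8 and 441 CPM, -0.27 (-0.40 to -0.14). In B-like cells 3 were compared and none passed, against 5.8% of 1138 genes, with Nfkbia at 217 and 160 CPM, -0.45 (-0.67 to -0.22).

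**Figure D5:**
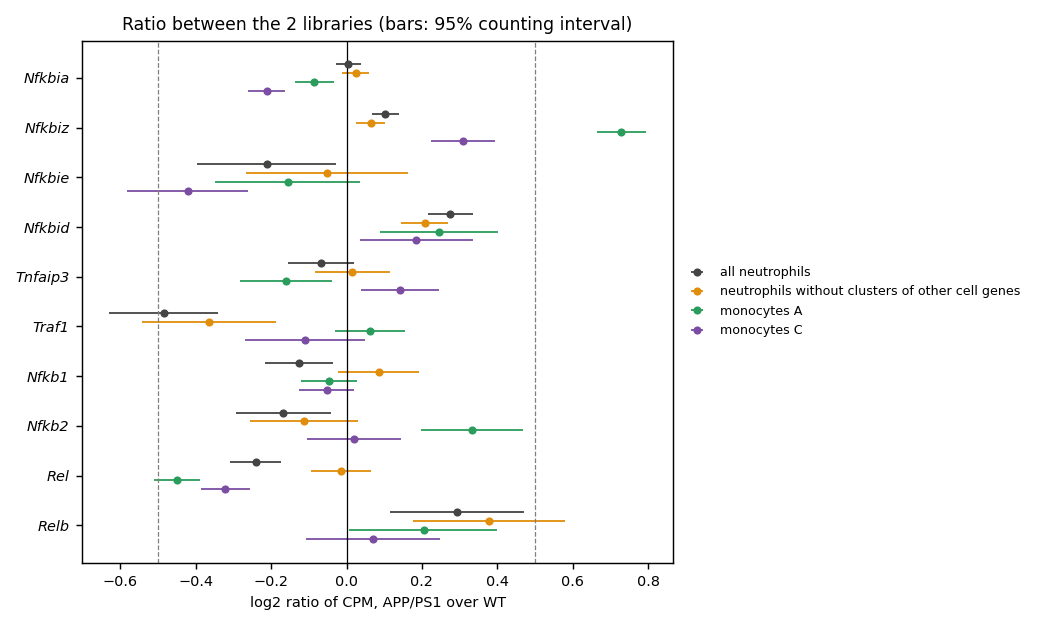
Log2 ratio of APP/PS1 to WT (horizontal axis) for each gene in all gated neutrophils (black), in neutrophils without the clusters of other cell genes (orange), in monocytes A (green) and in monocytes C (purple), with 95% counting intervals and dashed lines at 0.5 on both sides. Nfkbiz in monocytes A lies past the line at 0.73, and Rel in neutrophils moves from -0.24 to -0.01 when the clusters of other cell genes are left out.

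Other genes of the pathway were taken from a list of 69, of which 60 had at least 200 UMIs in neutrophils. Between the bins 16 of them were higher in the lowest bin in both libraries and 0 lower, with a median log2 ratio of 0.32 in WT and 0.38 in APP/PS1 against 0.31 and 0.28 for all genes. The share of all genes higher was 21.2%, so the count of 16 is near the background, and the TMM shift given above applies to them too. Of the 22 NF-kB target genes 10 were higher, of the 22 upstream receptors and adaptors 5, of the 4 kinases 1, and of the 9 other negative regulators and the 3 other subunits and IkB genes 0. The activation marker Cd83 went from 24.9 to 4.17 CPM in WT and from 12.04 to 4.51 CPM in APP/PS1 between the lowest and highest bin. The adhesion molecule Icam1 went from 18.0 to 5.13 CPM and from 19.6 to 7.43 CPM. The survival genes Bcl2a1d, Bcl2a1a and Bcl2a1b had log2 ratios of 1.56, 1.12 and 1.07 in WT and 1.04, 1.01 and 0.66 in APP/PS1, and as near-identical copies their counts may be split uncertainly. Map3k8, a kinase bound by the Nfkb1 precursor, went from 47.0 to 27.1 CPM in WT and from 79.0 to 37.9 CPM in APP/PS1. The other upstream genes that were higher, named after their values were seen, were the receptor gene Tnfrsf1b (log2 ratio 0.60 in WT, 0.78 in APP/PS1), Irak1 (0.70 and 0.60), Malt1 (0.87 and 0.69) and Map3k14 (0.93 and 0.54). The kinase higher was Ikbkb, a catalytic subunit of the kinase complex (named after its values were seen), at 105 and 58.2 CPM in WT and at 77.6 and 44.6 CPM in APP/PS1. Rela, the main activating subunit, was at 65.8 and 53.0 CPM in WT and at 58.5 and 49.1 CPM in APP/PS1.

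Between the libraries 3 of the 60 genes were higher and 1 lower in APP/PS1 neutrophils, a count near the background of 8.9% of all genes (2.43% higher and 6.47% lower). Zfp36, which encodes an RNA-binding protein that destabilises cytokine transcripts, was at 1579 CPM (WT) and 2648 CPM (APP/PS1), a log2 ratio of 0.75 (0.73 to 0.76). The chemerin-binding receptor Ccrl2 was at 249.7 and 483 CPM, 0.95 (0.91 to 0.997), and Map3k8 at 37.2 and 61.9 CPM, 0.73 (0.62 to 0.85). Cd83 was at 15.9 and 7.21 CPM, -1.14 (-1.39 to -0.90), and the dendritic cell markers, at 106 and 54.2 CPM, moved with it. Their part in this was not tested. The median of the 60 genes was -0.03.

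The genes most alike in pattern were found by Pearson's r of log2(CPM + 1) over 16 sums, 8 cell types in 2 libraries, among 10462 genes. The sums of a library may share free RNA, and r is given as a description. Nfkbia and Nfkbiz were both most like Cks2 (0.96 and 0.97), followed by Man2b1 and Mafg for Nfkbia and by Zfp36 and Rgs2 for Nfkbiz. Nfkbid was most like Srgn, Ypel3 and Alox5 (0.96 to 0.94). Tnfaip3 was most like Smap1, Nck2 and Galnt6, and Traf1 like Vti1a, Chuk and Gnpnat1. For the subunits the nearest genes were Scaf4, Man2c1 and Nelfa (Nfkb1), Ywhag, Dock8 and Ino80c (Nfkb2), and Ptprj, Ctsz and Nuak2 (Rel), and for Nfkbie they were Uvrag, Necap2 and Aim2.

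Among the 10 genes themselves, the patterns over cell types were most alike among the IkB family genes Nfkbia, Nfkbiz and Nfkbid, and among Nfkbie, Nfkb1, Nfkb2 and Rel. Nfkbia, Nfkbiz and Nfkbid had r of 0.94 (Nfkbia with Nfkbiz), 0.89 (Nfkbiz with Nfkbid) and 0.81 (Nfkbia with Nfkbid). Nfkbie, Nfkb1, Nfkb2 and Rel had r from 0.57 (Nfkb1 with Rel) to 0.91 (Nfkbie with Nfkb2). With these genes Relb had r from 0.52 (Rel) to 0.64 (Nfkbie). Between Nfkbid and the subunits r ranged from -0.33 (Relb) to 0.20 (Nfkb2), and Tnfaip3 had r of -0.46 with Rel and at most 0.37 with any member.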

How the data were processed

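The authors deposited raw UMI counts per gene and cell for 2 libraries, made per the submitters' notes with Cell Ranger 5.0.0 on mm10, with no normalization. Cells within the 5th to 95th percentile of genes and UMIs of their library and with at most 10% mitochondrial UMIs were kept. Clusters were made with Seurat 5.3.0 (R 4.3.3; 2000 variable features, 15 principal components, resolution 0.2; neutrophils integrated by CCA at resolution 0.3) without the 10 genes, and named from marker lists. Scrublet (scanpy 1.11.5, expected rate 8%) marked doublets. The APP/PS1 threshold of 0.669 called no cell, so the WT threshold of 0.214 was used for both. Called doublets stayed in.

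Summed counts were turned into CPM and have exact Poisson intervals, ratios with exact conditional intervals and shares with exact Clopper-Pearson intervals, at the 95% level. With 1 library a group, genes were called past a log2 ratio of 0.5, or 1 between cell types, among genes with at least 200 UMIs. In Poisson counts simulated for APP/PS1 against WT in neutrophils (6372 genes), 95.4% of intervals held the true ratio. The intervals assume the same model, so this checks the calculation only. Differences between cells, mice or libraries were not simulated. TMM library sizes came from edgeR 4.0.16. Promoters came from RefSeq (GRCm38.p6). All 10 genes are described. Of the pathway list, up to 6 genes with the largest ratio past the fold per direction are named, with 5 more named in the text after their values were seen, and for each member the 3 genes most alike, which for Relb are not reported here. The members and lists were chosen with earlier results of these data known. Alternatives changed the scaling, cell filters, gate, doublets, bins, depth and clusters.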

Additional observations from a re-analysis of the deposited data

Results flagged for a closer look

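The ratio of APP/PS1 to WT for Nfkb2 ran in opposite directions in monocytes A and in neutrophils, with counting intervals apart from 0 in both. It was 0.33 on the log2 scale in monocytes A, from 82.2 CPM (WT) and 103 CPM (APP/PS1), and -0.17 in neutrophils, from 41.0 and 36.5 CPM. The difference between the cell types was not tested, as there is 1 library per genotype. Without the neutrophil clusters led by genes of other cell types the neutrophil ratio was -0.11 (-0.26 to 0.03). In monocytes C the ratio was 0.02.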

How the results depend on the processing

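No paired analysis was possible because there is 1 library per genotype. Between the libraries, 0 of the 10 genes passed the fold in neutrophils, against 8.9% of all genes. Without abundant genes in the total 1 passed (Traf1, lower), against 7.16% of all genes lower. With the gate at 10% 1 passed (Traf1, lower). Between the Retnlg bins the count of 5 became 0 with TMM library sizes, against 7.66% of all genes higher and 7.82% lower. It became 3 without abundant genes in the total, against 12.6% higher and 3.09% lower. It became 8 with the gate at 3% and 2 with the gate at 10%. The share of all genes was not computed for these gates, so the counts under them have no background beside them. Between neutrophils and monocytes the count of 5 became 2 with TMM. For the changes of scaling the cause is the constant shift of all ratios; for the gate the cause was not tested. The other alternatives left the counts within 1.5 times: 10 of 12 for the libraries, 12 of 16 for the bins and 12 of 13 for the cell types. These include 2 chosen after the data were seen, neutrophil clusters with no gate and neutrophils without clusters of other cell genes. Leaving out neutrophils with UMIs of 2 or more markers of other cells removed 7447 cells, and 4 members (Nfkbia, Nfkbie, Nfkbid and Tnfaip3) then passed the fold between bins. The share of all genes was not computed for this set either. Nfkbia and Tnfaip3 passed it under every alternative run other than TMM. With genes of at least 50 UMIs, 29.5% of 9143 genes were higher in the lowest bin. In neutrophils the libraries' ratio changed sign under some alternatives for Nfkbia (-0.07 to 0.08), Tnfaip3 (-0.13 to 0.09), Nfkb1 (-0.16 to 0.09) and Rel (-0.27 to 0.02). Depth limits Nfkbie, Relb and Traf1 most, and basophil-like cells number 66 and 40.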
